A study of Mus musculus with 8 samples.

Results

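The clustered histone genes are the replication-dependent histone genes that the mouse genome carries in a few dense groups. They were taken as every gene of the deposited table whose name starts with Hist, a digit and h, with names marked as pseudogenes left out. This gave 67 of the 22553 genes: 6 for the linker histone H1, 18 for H2A, 18 for H2B, 12 for H3 and 13 for H4. For sorted cells of the mouse main olfactory epithelium (MOE), the table pairs ribosome footprints, mRNA pieces protected by a ribosome, with input RNA. Cells with the transgene Ngn1-GFP are progenitors and immature olfactory sensory neurons, while the knock-in allele OMP-ires-GFP marks mature ones; both were sorted with and without a deletion of Mex3a, which encodes an RNA-binding protein. Controls carried Mex3a flox/flox or Mex3a flox/+ without Cre, although their genotype tag reads Mex3a fl/fl, and the KO animals carried Mex3a fl/fl with a Cre allele. For the KO of mature neurons, the genotype tag reads OMP-ires-Cre where the description has OMP-ires-GFP. The sources used here do not give age or sex, or whether animals were pooled.

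Core histones H2A, H2B, H3 and H4 build the nucleosome, around which DNA is wrapped, and H1 binds the DNA that links nucleosomes. The clustered genes are known as intronless, multi-copy genes whose mRNAs end in a stem-loop in place of a poly(A) tail and are made mainly while DNA is replicated. Neurons no longer divide, and replacement histones, encoded by single genes elsewhere, are known to supply chromatin outside DNA replication. Hist2h2be, which encodes the variant H2BE, is known from olfactory sensory neurons.

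The labels list 8 footprint libraries, 2 per group, but the table holds 1 footprint and 1 RNA column for each of the 4 groups, so no difference below has a replicate check and no test was made. Each ratio is given as log2 after TMM scaling, with a 95% interval that covers counting error only. A gene was measured in a pair of columns with at least 20 counts, and it is called higher or lower where the columns were at least 2-fold apart and the interval excluded no change. Of the 67 members, 55 passed the filter on low counts in footprints and 66 in RNA, and each count below is of the members measured in that pair, not of all members. Column totals ran from 3031489 to 4456989 footprints and from 26946592 to 89327877 RNA reads. The targeted Mex3a had 437 footprints in control and 28 in KO cells positive for Ngn1-GFP, and 16 and 5 in those positive for OMP-GFP; 4 values in a row below keep this order of groups.

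The members lie in 6 stretches of the GRCm38 assembly. Chromosome 13 holds 18 of them at chr13:21715711-21837530, 5 at chr13:22035122-22043658 and 31, among them 5 of the 6 H1 genes, at chr13:23531044-23934913. Chromosome 3 holds 10 at chr3:96219885-96270192, chromosome 11 holds Hist3h2a and Hist3h2ba at chr11:58948911-58955192, and Hist4h4 stands alone at chr6:136803993-136804431. The promoters of the H1 genes on which the results turn are shown first, because these genes moved apart from the core histones below. Each line gives the 130 bases before the gene's annotated start in RefSeq's GRCm38.p6 sequence, 5′ to 3′, with matches to AAACACA in capitals on either strand, as are matches to the CCAAT box and to the TATA box letters TATAAA.
Hist1h1a (chr13:23763538-23763667, plus strand): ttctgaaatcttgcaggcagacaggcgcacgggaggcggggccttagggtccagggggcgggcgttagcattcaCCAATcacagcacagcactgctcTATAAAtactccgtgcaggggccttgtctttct
Hist1h1b (chr13:21780626-21780755, minus strand): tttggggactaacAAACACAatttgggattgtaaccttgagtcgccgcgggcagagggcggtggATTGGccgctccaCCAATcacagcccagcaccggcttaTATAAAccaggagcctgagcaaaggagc
Hist1h1c (chr13:23738677-23738806, plus strand): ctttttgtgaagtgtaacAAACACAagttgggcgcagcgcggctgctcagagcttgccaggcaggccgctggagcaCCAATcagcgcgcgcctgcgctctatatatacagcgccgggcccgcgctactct
Hist1h1d (chr13:23554902-23555031, plus strand): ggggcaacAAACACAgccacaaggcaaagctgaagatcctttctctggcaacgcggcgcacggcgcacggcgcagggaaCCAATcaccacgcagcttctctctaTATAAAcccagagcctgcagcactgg
Hist1h1e (chr13:23622559-23622688, minus strand): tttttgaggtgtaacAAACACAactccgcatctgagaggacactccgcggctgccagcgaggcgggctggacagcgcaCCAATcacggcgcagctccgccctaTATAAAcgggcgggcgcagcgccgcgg
The letters AAACACA, known as the H1 box, stood in this window of 5 of 6 H1 genes (83.3%), Hist1h1a being the one without it, against 2.98% of all 32851 promoters. CCAAT was found in 6 of 6 H1 promoters, 18 of 18 for H2A, 16 of 17 for H2B, 7 of 10 for H3 and 3 of 12 for H4, against 22.4% of all. TATAAA was found in 33.3% of the 63 promoters of clustered histones and in 6.83% of all. A match is a description of these letters and not a measured site, and the motif does not separate Hist1h1d, whose footprints moved differently from those of Hist1h1c and Hist1h1e below.

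The clustered histones together held 26666 footprints in control and 17963 in KO cells of the Ngn1-GFP sort, and 11321 and 14049 in those of the OMP-GFP sort. These were 0.598%, 0.593%, 0.317% and 0.343% of all footprints, so the share was nearly the same in both Ngn1-GFP columns and lower in both OMP-GFP columns. Their RNA reads took 1.28%, 0.476%, 0.289% and 0.291% of the RNA columns. In RNA, the Ngn1-GFP control therefore stood above the other 3 columns, which the footprints did not show.

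Footprints per RNA read, the ratio of summed CPM (counts scaled to equal column depth), set H1 apart from the core histones in some groups only. H1 stood above all core types in the Ngn1-GFP control, whose RNA column is examined below, and in the OMP-GFP KO. In the Ngn1-GFP KO and the OMP-GFP control, H1 lay among the core types. For H1 the ratio was 1.32, 1.36 and 1.18 in the first 3 groups and 2.42 in the OMP-GFP KO. For H2A it was 0.119, 0.872, 0.852 and 0.790 over the 4 groups, and for H2B 0.326, 0.922, 1.06 and 0.925. For H3 it was 0.195, 1.43, 1.23 and 0.859, and for H4 0.594, 1.56, 1.195 and 0.779. All 4 core types were thus lowest in the Ngn1-GFP control, and H1 was highest in the OMP-GFP KO.

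**Figure D1:**
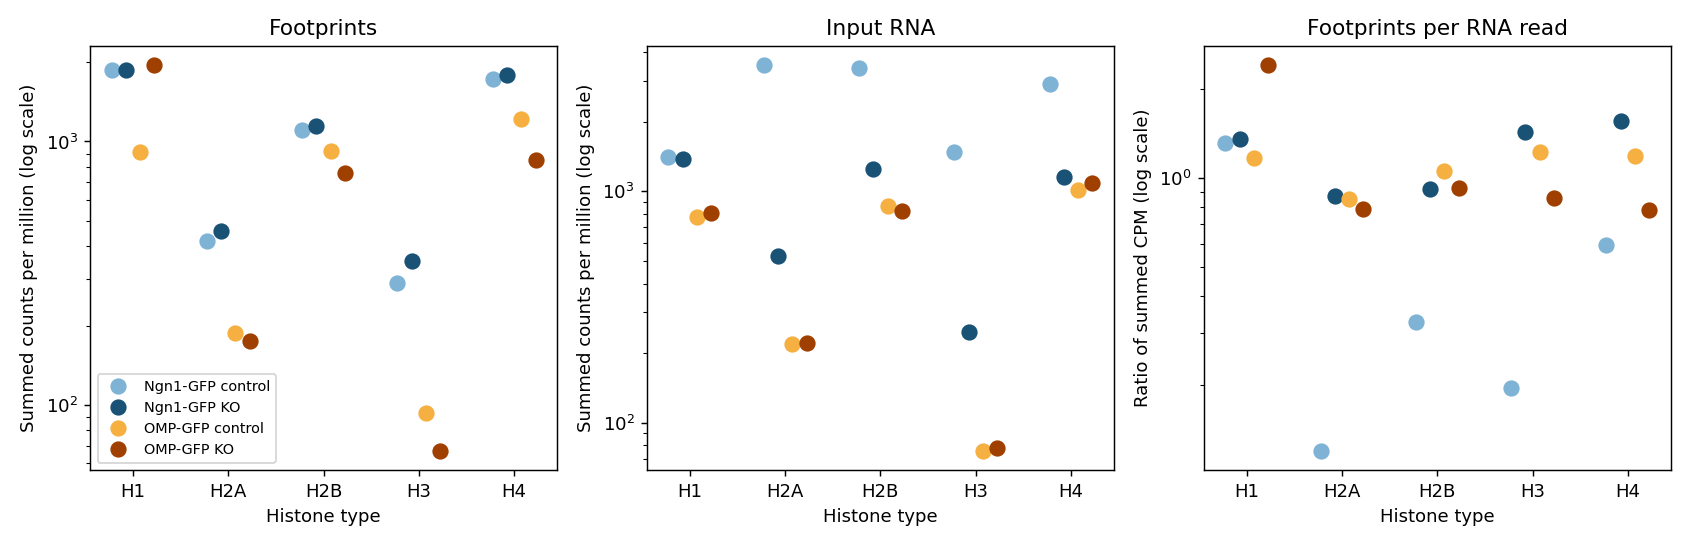
Summed CPM of footprints (left), of input RNA (middle) and their ratio (right), each on a log axis, for the 5 histone types (horizontal axis) in the 4 groups; each point is 1 deposited column, with no replicate error. The Ngn1-GFP control stands high in RNA for H2A, H2B, H3 and H4 but not for H1, and the OMP-GFP KO stands high in footprints per RNA read for H1, at 2.42.

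The Ngn1-GFP control RNA column was examined first, because several ratios use it. In that column 24 of the 67 members (35.8%) were at least 8-fold above each of the other 3 RNA columns, against 1.56% of all other genes, and no member was so in any other RNA or footprint column. By type these were 9 of 18 H2A, 6 of 18 H2B, 5 of 12 H3, 4 of 13 H4 and 0 of 6 H1 genes, and they held 43.0% of the histone reads of that column. Each of the 61 core members had reads there, from 8 for Hist1h2aa to 81624, with a median of 13070. In the Ngn1-GFP KO the median over the core members was 726 reads with 10 members at 0, in the OMP-GFP control 165 with 9 at 0, and in the OMP-GFP KO 127 with 11 at 0. After scaling, these medians were 145 CPM in the Ngn1-GFP control against 24.9, 5.29 and 4.88 CPM in the other columns, so the gap remained after scaling for depth.

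Several genes had nearly all their RNA in this 1 column. In total, 11 members had over 1000 RNA reads in the Ngn1-GFP control and at most 6 in each other RNA column, together 322165 reads or 28.1% of the histone RNA there. The H2A pair Hist2h2aa1 and Hist2h2aa2 had 81606 and 81624 reads in the Ngn1-GFP control, and for Hist2h2aa1 0 and for Hist2h2aa2 6, 0 and 5 in the other 3 columns. The H2B pair Hist1h2bq and Hist1h2br had 29457 and 29475 reads, the H2A pair Hist1h2ao and Hist1h2ap 12370 and 12371, and the H4 pair Hist1h4m and Hist1h4n 17265 each, all with 0 in the other 3 columns. The pairs thus carried nearly equal counts in the Ngn1-GFP control and almost none elsewhere, and 10 of the 11 genes had no footprint in any column. Hist1h4m was the exception, with 478 and 256 footprints in the Ngn1-GFP columns and 0 and 19 in the OMP-GFP columns. Hist1h2ba, whose product is known from testis, had 13732, 0, 1 and 0 RNA reads and no footprint. The sources used here do not say how reads matching several copies were assigned in each column, so values of single core genes, which have near-identical copies, are uncertain, and so are all ratios that use the Ngn1-GFP control RNA.

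**Figure D2:**
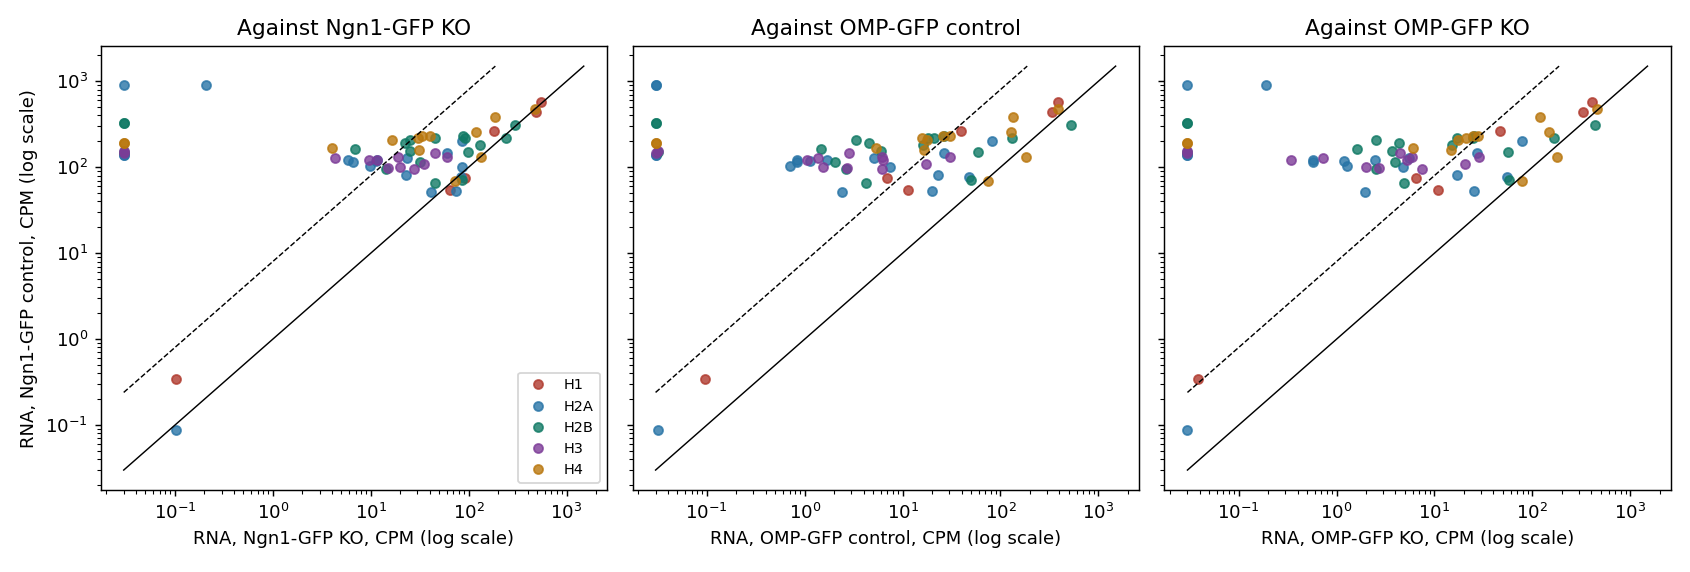
Input RNA of each of the 67 members in the Ngn1-GFP control (vertical axis, CPM, log scale) against each of the other 3 RNA columns (horizontal axes, CPM, log scale), coloured by histone type, with values of 0 drawn at the left or lower edge. The solid line marks equal levels and the dashed line 8-fold higher in the Ngn1-GFP control; many core genes lie above the dashed line in every panel, and no H1 gene lies above it against the Ngn1-GFP KO.

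In Ngn1-GFP cells, histone footprints were nearly level between KO and control. Of 54 measured members, 3 were higher (5.56%, against 6.49% of all 12554 measured genes) and 1 was lower (1.85%, against 10.8%), with a median of 0.06 beside 0.00 over all genes. Summed footprints differed by 0.00 [-0.05, 0.05] for H1, 0.12 [0.03, 0.22] for H2A, 0.05 [-0.01, 0.11] for H2B, 0.29 [0.17, 0.40] for H3 and 0.05 [0.00, 0.10] for H4. All 5 sums lay well inside 2-fold, and H3 had the largest.

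The called members were all weakly covered. Hist1h2ah, an H2A gene, had 21 footprints in the Ngn1-GFP control and 51 in the KO, a log2 ratio of 1.90 [1.14, 2.71]. Hist1h3a, an H3 gene, had 36 and 63, a ratio of 1.43 [0.82, 2.06], and Hist1h2bp, an H2B gene, had 17 and 25, a ratio of 1.18 [0.23, 2.16]. Hist1h4k, an H4 gene, had 19 and 3, a ratio of -2.04 [-4.44, -0.28]. With at least 100 counts in the pair, no member was called in either direction. The well covered genes stayed close to no change: Hist1h1e, an H1 gene, had 3582 footprints in the control and 2427 in the KO (0.06 [-0.01, 0.14]) in columns of unequal depth, and Hist1h1c 2950 and 1890 (-0.02 [-0.10, 0.06]). Summed footprints of 8 sustentacular markers, genes of the supporting cells, were 4619 CPM in the control and 569 CPM in the KO, with 8 of 8 genes detected in both. How these cells bear on the histone sums was not tested.

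The RNA of the same cells gave a different picture in the core histones and not in H1. Of 66 members measured in RNA, 48 were lower in the KO (72.7%, against 11.9% of all genes) and 0 were higher (against 4.4%), with a median of -2.34 beside 0.01 over all genes. All 12 H3 genes, 13 of 17 H2A, 12 of 18 H2B and 10 of 13 H4 genes were lower, and of the 6 H1 genes only Hist1h1t, with 31 and 3 reads. Summed H1 RNA differed by -0.04 [-0.05, -0.02] and summed core RNA by -1.84 [-1.85, -1.83]. Without the 24 members that stood 8-fold above the other columns, an exclusion chosen after the values were seen, the core sum was -0.95. Footprints per RNA read were accordingly higher in 33 of 54 members (61.1%, against 8.05% of all genes) and lower in 0 (against 9.81%), all 33 of them core genes. These ratios use the uneven RNA column, and the H1 genes, which were not uneven there, had a summed ratio of 0.04 [-0.01, 0.09]. Other RNA was also lower in this pair. Summed RNA of 5 erythroid markers, genes of red blood cells, was 233 CPM in the control and 36.0 CPM in the KO. Of these, 4 of 5 were lower, with a median of -2.55, while their summed footprints were 64.2 and 55.0 CPM. The 4 were the globin genes Hba-a1, Hba-a2, Hbb-bs and Hbb-bt, and Alas2 was not called, at -0.55 [-0.80, -0.31]. Summed RNA of the 8 sustentacular markers was 793 and 166 CPM, with 7 of 8 lower. H3f3a, which encodes the replacement histone H3.3, had 34725 and 779 RNA reads, a ratio of -3.85 [-3.95, -3.75], with no footprint in any column. Neither the part of these cells in the core RNA difference nor that of reads matching several copies was tested.

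In mature OMP-GFP neurons, H1 footprints were 2.13-fold higher in the KO at nearly equal H1 RNA, while the summed H3 and H4 footprints were below the control by less than 2-fold. Summed H1 footprints were 3112 in control and 7207 in KO cells, or 914 and 1948 CPM, a log2 ratio of 1.09 [1.03, 1.15]. Summed H1 RNA was 777 and 806 CPM, a ratio of 0.05 [0.03, 0.08]. The sums of the core histones went the other way in footprints, at -0.38 [-0.43, -0.34], with a core RNA ratio of 0.02 [0.01, 0.04]. By type the footprint ratio was -0.51 [-0.58, -0.45] for H4, -0.48 [-0.72, -0.23] for H3, -0.28 [-0.35, -0.20] for H2B and -0.10 [-0.26, 0.07] for H2A. H1 was thus the only type above 0 in this pair, and H2A could not be told from no change at this depth.

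Among single H1 genes, Hist1h1c, one of the most abundant somatic linker histones, had 2950, 1890, 1197 and 2884 footprints over the 4 groups. Its ratio in the OMP-GFP pair was 1.15 [1.05, 1.25], beside an RNA ratio of -0.01 from 10450 and 8663 reads. Hist1h1e, the other abundant somatic H1, had 3582, 2427, 1652 and 3942 footprints in the same order of groups. These genes took 91.5% of H1 footprints in mature control cells and 94.7% in mature KO cells, so they set the H1 sum. The ratio of Hist1h1e was 1.13 [1.05, 1.22], with RNA of 11957 and 10676 reads and an RNA ratio of 0.10. Hist1h1b, which encodes a further somatic H1, had 1108, 690, 48 and 131 footprints, and in the OMP-GFP pair a ratio of 1.33 [0.84, 1.84] with an RNA ratio of -0.08. It was far scarcer in the OMP-GFP than in the Ngn1-GFP columns in both genotypes.

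Of the remaining H1 genes, Hist1h1a shared this direction but not the size, and Hist1h1d did not share the direction. Hist1h1a had 625, 430, 91 and 153 footprints, and its ratio in the OMP-GFP pair, 0.63 [0.25, 1.02], stayed under 2-fold. Hist1h1d had 928, 535, 124 and 97 footprints, a ratio of -0.47 [-0.87, -0.08] with an RNA ratio of 0.21 from 1244 and 1204 reads. Hist1h1d was the one measured H1 gene below 0 in footprints in this pair, and its promoter holds the same 3 motifs as those of Hist1h1b and Hist1h1e. Hist1h1t, known as the testis H1, had 3 footprints in the Ngn1-GFP control and 0 in the other columns. In the Ngn1-GFP pair the 5 measured H1 genes lay between -0.17 and 0.08, so the H1 difference was seen in mature neurons and not in the Ngn1-GFP columns; the difference between the pairs was not tested.

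Over all members in the OMP-GFP pair, 3 of 43 measured were higher (6.98%, against 7.12% of all 11160 measured genes) and 6 were lower (14.0%, against 8.54%). The share called higher was near that of all genes, and the 3 genes were Hist1h1b, Hist1h1c and Hist1h1e. The median over the members was -0.36 beside 0.00 over all genes, and 27 of 38 measured core genes lay below 0, with 9 of 10 for H4, 9 of 11 for H2B, 5 of 9 for H3 and 4 of 8 for H2A. In RNA, 0 of 54 members were higher (against 4.4% of all genes) and 1 was lower (against 3.89%), the H3 gene Hist1h3g with 33 and 9 reads. The members' RNA median was -0.02.

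The core genes called lower were of different depth. Hist1h2bc, an H2B gene, had 101 footprints in control and 33 in KO cells, a ratio of -1.73 [-2.35, -1.15], with 658 and 649 RNA reads. Hist1h2bb, another H2B gene, had 35 and 2, a ratio of -4.25 [-7.35, -2.29], with 569 and 441 RNA reads. In both genes the RNA was close to level, at 0.24 and -0.11. The H3 genes Hist1h3e (28 and 8 footprints, -1.93 [-3.27, -0.76]), Hist1h3i (69 and 30, -1.32 [-1.99, -0.68]) and Hist2h3b (79 and 38, -1.18 [-1.77, -0.60]) were lower. Hist1h4h, an H4 gene, had 102 and 52, a ratio of -1.09 [-1.60, -0.60]. Among the deeper H4 genes, Hist2h4 had 1114 and 812 footprints (-0.58 [-0.71, -0.44]), Hist4h4 1148 and 956 (-0.38 [-0.51, -0.26]) and Hist1h4d 813 and 621 (-0.51 [-0.66, -0.36]), so the H4 sum was made mostly of differences under 2-fold.

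Footprints per RNA read in the OMP-GFP pair were higher in 4 of 43 members (against 7.16% of all genes) and lower in 6 (against 8.93%). The higher ones were Hist1h1b (1.41 [0.85, 1.97]), Hist1h1c (1.16 [1.05, 1.27]), Hist1h1e (1.04 [0.95, 1.13]) and the H2A gene Hist1h2af; 2 of 43 were higher with columns scaled by their totals alone. The lower ones were Hist1h2ak, Hist1h2bb, Hist1h2bc, Hist1h3e, Hist1h3i and Hist1h4c. For the summed H1 genes the ratio of ratios was 1.04 [0.97, 1.10] and for the summed core genes -0.40 [-0.45, -0.36].

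Markers of other cells also moved in the OMP-GFP pair, in which 7.12% of all genes were higher and 8.54% lower in footprints. Sustentacular markers summed to 154 CPM of footprints in control and 565 CPM in KO cells, with 4 of 7 measured genes higher. Gland markers summed to 61.4 and 527 CPM with 5 of 7 higher, and erythroid markers to 48.2 and 128 CPM with 2 of 5 higher. Basal cell markers held only 8 footprints in control and 3 in KO cells, or 2.35 and 0.811 CPM. Of these 4 genes, 2 were at 0 in the control and 3 in the KO, and 0 were measured in this pair. Markers of mature neurons were 23262 and 27298 CPM with 0 of 10 called. Of 16 genes of mitosis, 4 of 9 measured were higher (44.4%, against 7.12% of all genes), among them Mki67 with 11 and 47 footprints, and their sum was 70.5 and 118 CPM. The sums were 17.0 and 34.9 CPM for immune markers, 141 and 120 CPM for mesenchyme and vessel, 172 and 199 CPM for precursors and 2703 and 3126 CPM for immature neurons. The part of these cells in the H1 difference was not tested. Fewer cells of a type and less RNA per cell cannot be told apart in such sorted bulk samples.

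**Figure D3:**
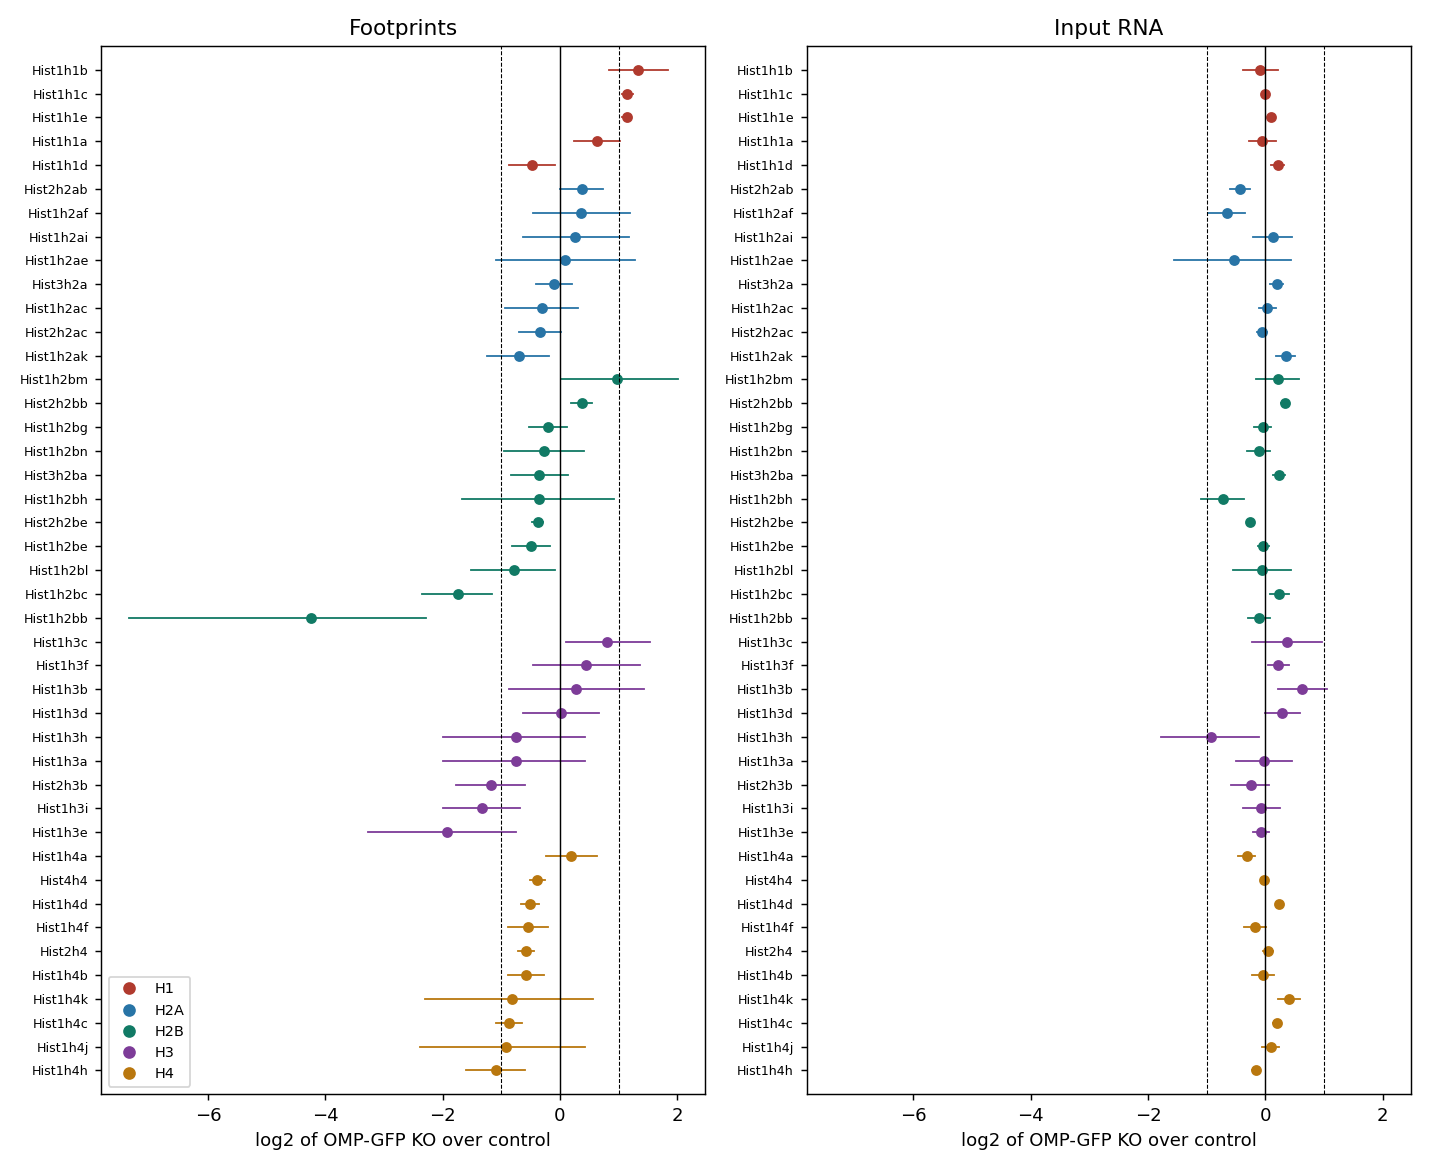
Log2 ratio of OMP-GFP KO over control for the 43 clustered histone genes measured in footprints, in footprints (left) and input RNA (right), grouped by histone type; points are the deposited columns and bars are 95% counting intervals, and dashed lines mark 2-fold. In footprints Hist1h1b, Hist1h1c and Hist1h1e lie above 1 and 9 of 10 H4 genes lie below 0, while in RNA these genes lie within 2-fold.

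The histones made outside DNA replication were set beside these values. Of 11 replacement histone genes, 1 of 8 measured was higher in the OMP-GFP KO in footprints (12.5%, against 7.12% of all genes) and 0 were lower, with a median of 0.30. The one was H1f0, which encodes the linker histone of resting cells, with 829, 497, 232 and 520 footprints over the 4 groups. Its ratio in the OMP-GFP pair was 1.04 [0.82, 1.27] with an RNA ratio of 0.21 [0.12, 0.30]. H1fx, a further linker histone, had 94 and 90 footprints in that pair, a ratio of -0.18 [-0.62, 0.25]. Linker histones inside and outside the clusters therefore held both genes near 2-fold higher and genes that were not.

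Genes that act on histone mRNA and protein, and genes of DNA replication, were counted in that pair as well. Of 14 genes for histone mRNA processing, such as Slbp, which binds the stem-loop, 13 are in the table, and 0 of 12 measured were called in footprints and 0 of 13 in RNA. Of 16 histone chaperones, which hand histones to DNA, 0 of 14 measured were called in footprints and 0 of 16 in RNA. Over all genes, 7.12% were higher and 8.54% lower in footprints, and 4.4% and 3.89% in RNA. In lists this short, few calls would follow from these shares. Of 39 DNA replication genes, 6 of 31 measured were lower in footprints (19.4%, against 8.54% of all genes) and 1 was higher (3.23%, against 7.12%), with a median of 0.04.

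Between the populations, clustered histones were lower in mature than in immature cells in both genotypes. In controls, 32 of 53 measured members were lower in footprints (60.4%, against 17.4% of all genes) and 0 were higher (against 6.11%), with a median of -1.52 beside -0.02 over all genes. In KO cells, 41 of 53 were lower (77.4%, against 18.4%) and 0 were higher (against 11.3%), with a median of -2.43. The summed core footprints differed less than single genes did, at -0.56 [-0.60, -0.52] in controls and -1.02 [-1.06, -0.98] in KO cells, since a few abundant genes held their level. H1 summed to -1.03 [-1.09, -0.97] in controls and to 0.06 [0.01, 0.11] in KO cells, a value that turned to -0.16 when columns were scaled by their totals alone and to -0.33 without Hist1h1e. The control and KO comparisons use different columns for both populations, and their difference was not tested. Beside these ratios, precursor markers summed to 1108 CPM of footprints in the Ngn1-GFP control against 172 CPM in mature control cells. Sustentacular markers were 4619 against 154 CPM, basal 102 against 2.35, mesenchyme and vessel 1219 against 141, and gland 353 against 61.4. Immature neuron markers were 4641 against 2703 CPM, erythroid 64.2 against 48.2, immune 30.5 against 17.0, and mature neuron markers 12687 against 23262. In KO cells, sustentacular markers were near level, at 569 against 565 CPM. There precursor markers were 1357 against 199 CPM and mature neuron markers 14704 against 27298. The part of cell composition was not tested. The Ngn1-GFP columns thus held markers of mature neurons as well.

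By type, 3 of 5 H1, 9 of 13 H2A, 10 of 14 H2B, 6 of 10 H3 and 4 of 11 H4 genes were lower in OMP-GFP control cells. In KO cells these were 3 of 5, 10 of 13, 12 of 15, 9 of 10 and 7 of 10. Among H1 genes, Hist1h1b had the widest gap, -4.00 [-4.45, -3.58] in controls, from 1108 and 48 footprints. Hist1h1d stood at -2.37 [-2.65, -2.10] and Hist1h1a at -2.25 [-2.58, -1.93], whereas Hist1h1c was at -0.77 [-0.87, -0.67] and Hist1h1e at -0.58 [-0.67, -0.50]. The H1 genes thus held 3 members called lower and 2 that stayed within 2-fold.

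Some core genes had no footprint in OMP-GFP control cells at this depth. Hist1h4m had 478 footprints in the Ngn1-GFP control and 0 in the OMP-GFP control. With a 0 set to 3 counts this gives 110-fold lower, a value that depends on that setting and is not a bound. Hist1h4m did have footprints in the OMP-GFP KO, as given above. Values of single core genes with near-identical copies, this one included, are uncertain. Hist1h2ad, an H2A gene, had 40 footprints in the Ngn1-GFP control and 27 in the KO, and 0 in both OMP-GFP columns. By the same setting it was 9.22-fold lower in controls. Hist1h2ah had 21 and 51 in the Ngn1-GFP columns and 0 in both OMP-GFP columns. In H3, the most covered gene of immature cells, Hist1h3d, had 402 and 352 footprints there, control before KO, and 40 and 44 in mature cells.

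**Figure D4:**
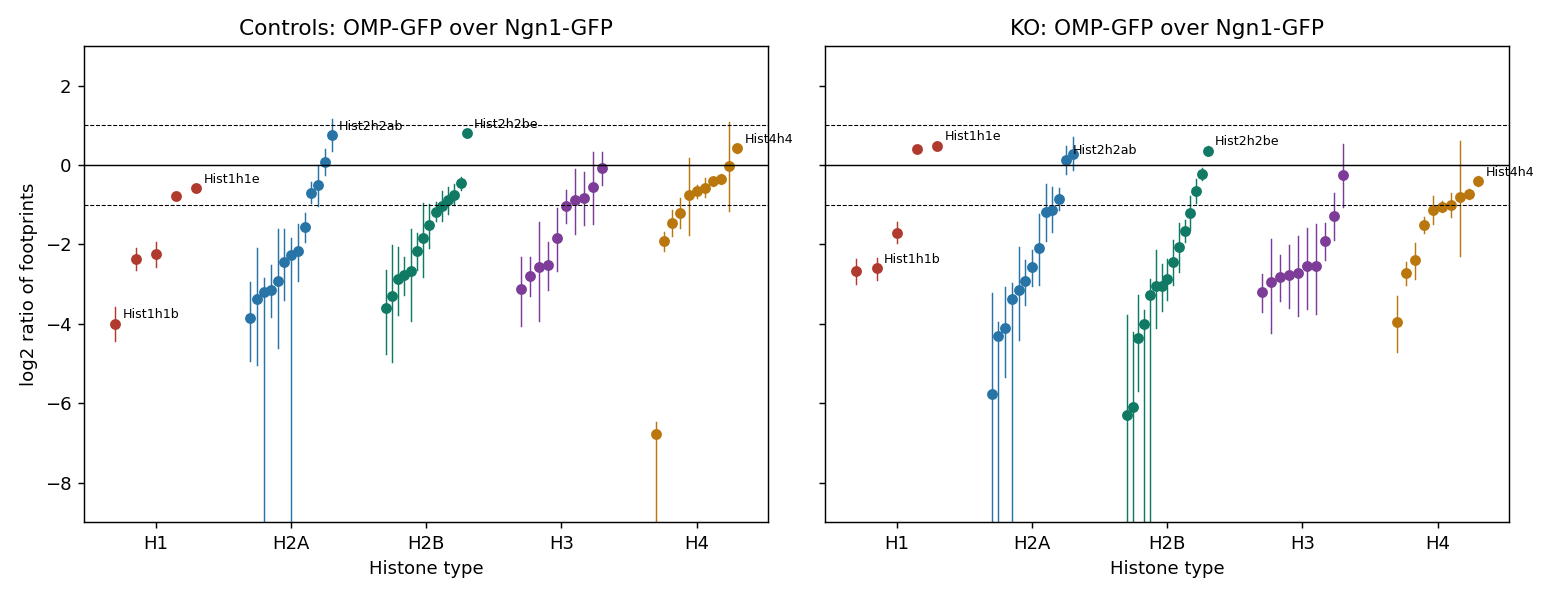
Log2 ratio of OMP-GFP over Ngn1-GFP footprints for each measured member, by histone type, in controls (left) and KO cells (right); bars are 95% counting intervals, cut at the axis where a count was 0, and dashed lines mark 2-fold. Most points lie below -1. Of the core genes, 4 lie above 0 in controls and 3 in KO cells, among them Hist2h2be in both panels, at 0.81 and 0.36, with Hist2h2ab and Hist2h2ac.

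Hist2h2be was by far the most covered of the core genes above 0 in both genotypes, which included Hist2h2ab and Hist2h2ac. Its footprints numbered 1616 and 1101 in immature cells, control before KO, and 1955 and 1636 in mature cells. These were 29.6% and 30.03% of H2B footprints in immature cells, against 62.5% and 58.3% in mature cells. Its ratio of mature over immature was 0.81 [0.71, 0.90] in controls and 0.36 [0.25, 0.47] in KO cells, with RNA ratios of 0.74 and 0.55. Its RNA reads were 28151, 8606, 16246 and 11286 in the order of the groups, or 312, 295, 521 and 433 CPM, so this gene did not share the excess of the Ngn1-GFP control column. In the KO comparisons its footprint ratio was 0.07 [-0.04, 0.18] in Ngn1-GFP cells and -0.38 [-0.47, -0.28] in OMP-GFP cells, the latter with an RNA ratio of -0.27.

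Its neighbours on chromosome 3 were mostly within 2-fold between the populations, but few of them were measured. Without Hist2h2be, 9 members lie there; 0 of 5 measured were lower in controls (against 17.4% of all genes), with a median of -0.08, and 1 of 5 in KO cells (against 18.4%), with a median of -0.23. The one was Hist2h3b, an H3 gene, at -1.28 [-1.88, -0.71]. With so few genes, these counts are near what the share over all genes gives. In the 3 stretches of chromosome 13, 17 of 28, 10 of 12 and 4 of 4 were lower in controls, with medians of -1.48, -2.17 and -2.80, and 24 of 28, 11 of 12 and 4 of 4 in KO cells. Hist2h2ac, an H2A gene whose start lies 191 bases from Hist2h2be, had 194, 86, 141 and 121 footprints and ratios of 0.07 [-0.25, 0.39] in controls and 0.28 [-0.13, 0.70] in KO cells. Hist2h2ab had 96, 124, 112 and 157 footprints and ratios of 0.75 [0.35, 1.16] and 0.13 [-0.22, 0.48]. Most of the 191 bases between the genes lie in the promoter window of Hist2h2ac (chr3:96220881-96221010, minus strand), shown because it lies between both genes, with CCAAT and TATAAA in capitals on either strand.
Hist2h2ac: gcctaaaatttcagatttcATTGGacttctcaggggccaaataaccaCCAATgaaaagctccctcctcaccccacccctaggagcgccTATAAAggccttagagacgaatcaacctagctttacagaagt
Hist4h4, alone on chromosome 6, had 1240, 1097, 1148 and 956 footprints, a ratio of 0.42 [0.30, 0.54] in controls and -0.41 [-0.54, -0.28] in KO cells. Its RNA ratios were 0.46 and 0.41. It was thus the most covered H4 gene in both OMP-GFP columns, at 27.8% and 30.4% of H4 footprints, as Hist2h4 was in the Ngn1-GFP columns, at 25.1% and 20.4%.

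In RNA the populations can be compared without the uneven column in KO cells. There 32 of 54 measured members were lower in OMP-GFP cells (59.3%, against 16.4% of all genes) and 0 were higher (against 4.77%), with a median of -1.73. By type these were 3 of 5 H1, 10 of 13 H2A, 10 of 15 H2B and 8 of 10 H3 genes, but only 1 of 11 H4 genes, whose RNA median was -0.08 while 7 of 10 were lower in footprints. Summed H4 RNA was 1149 CPM in the Ngn1-GFP KO and 1090 CPM in the OMP-GFP KO, and summed H4 footprints 1794 and 850 CPM. H4 footprints per RNA read were lower by this measure, with a ratio of -1.003 [-1.07, -0.94]. In controls, 56 of 66 members were lower in RNA (84.8%, against 24.1% of all genes) and 0 higher (against 3.43%), a count that rests on the Ngn1-GFP control column. Single members gave 7 of 52 higher (against 9.51% of all genes) and 11 lower (against 12.4%) in footprints per RNA read in KO cells, and 32 of 53 higher (against 5.98%) and 0 lower (against 8.7%) in controls, where the uneven column enters.

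Lists of genes for DNA replication and division, which are active in the same phase or soon after it, held more lower genes in mature cells than the table as a whole. The shares over all genes were 17.4% lower and 6.11% higher in controls, and 18.4% and 11.3% in KO cells. Of 16 mitosis genes, 11 of 12 measured were lower in footprints in controls (91.7%), with a median of -2.85, and 13 of 15 in KO cells (86.7%), with a median of -2.20. Of 39 replication genes, 12 of 35 measured were lower (34.3%) and 1 higher in controls, with a median of -0.91, so most were not called. In KO cells 13 of 31 were lower (41.9%) and 2 higher, with a median of -0.74. Of 11 replacement histones, 4 of 9 measured were lower in controls (44.4%), among them Cenpa, the histone H3 variant of centromeres, with 39 and 4 footprints, and 3 of 9 in KO cells (33.3%). Of 16 chaperones, 2 of 16 measured were lower in controls (12.5%), and 2 of 15 in KO cells (13.3%) with 1 higher, near the shares over all genes. Of 14 histone mRNA processing genes, 0 of 13 measured were called in controls and 1 was lower in KO cells. The median of the clustered histones, -1.52 in controls, lay between those of the replication and the mitosis lists, whereas in KO cells it was -2.43, below both.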

How the data were processed

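Footprint and input RNA values of 67 clustered histone genes were taken from 1 deposited table. Per the file headers, its counts are whole reads over coding sequences, and the authors also deposited coding length (a score column here), footprint RPKM, RNA TPM and a translational efficiency ratio. FastQC, cutadapt, STAR and mm10 appear, with no version, in the submitters' processing notes. The sources used here do not say how libraries became 1 column per group or how reads matching several copies were counted.

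Columns were scaled by TMM (edgeR 4.0.16, R 4.3.3) over genes kept by filterByExpr. Since the table has 1 column per group, no test was made. Ratios carry exact conditional binomial 95% intervals, approximate for footprints per RNA read, and a count of 0 was set to 3 (Python 3.11.15, numpy 2.4.6, scipy 1.17.1, pandas 2.3.3, matplotlib 3.10.9). The code was tested on simulated data. All 67 members matched the RefSeq table by synonym and 62 had a promoter. Promoter windows hold only bases before the annotated start. The planned naming rule covers all members by histone type: the most covered, those called in a comparison, those with RNA in 1 column, and a few tissue-restricted genes (promoters to print were chosen after values were seen). The members, the 5 pathway lists and the 9 marker lists were chosen with earlier results of these data known. Alternatives were other scalings (DESeq2 1.42.0 size factors among them), filters, folds, settings of 0, and sums without the deepest gene. The authors' own efficiency columns, a rescaling of the same counts, were also set beside these values. The driver of the Cre allele is not reported here.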

Additional observations from a re-analysis of the deposited data

How the results depend on the processing

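No paired analysis was possible because the table has 1 column per group. The sums without members of identical protein were not run, as no protein table was used here. Between the populations, scaling by column totals alone moved every log2 footprint ratio by -0.21 (controls) and -0.23 (KO cells), and the RNA ratio of KO cells by -0.12; all other shifts were below 0.1. DESeq2 size factors moved no count of called members by over 1.5 times and no leading sum beyond its interval.

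Counts of called members moved with the fold and the depth. In the Ngn1-GFP pair, footprints gave 6 higher and 2 lower at 1.5-fold, 1 higher at 3-fold, and no call either way (0) where 100 counts were required. In the OMP-GFP pair, footprints gave 6 higher at 1.5-fold, 0 higher and 3 lower at 3-fold, 5 higher with no filter beyond 1 count, and 3 lower with at least 100 counts; RNA gave 3 higher and 4 lower at 1.5-fold and 0 lower with at least 100 counts, and footprints per RNA read gave 2 higher under column totals and under TMM without histone, receptor, mitochondrial and ribosomal genes. By the authors' deposited efficiency, the OMP-GFP pair had medians of 1.03 over 5 H1 genes and -0.37 over 38 core genes. The values here were 1.04 and -0.36. This efficiency is a ratio of the same counts, taken as shares of column totals, times a fixed number per group. That number was 1.38 for mature KO cells and 1.33 for mature control cells. The nearness of the medians therefore follows from shared counts and is not an independent check. Between populations, 1.5-fold gave 2 higher in footprints of controls and 1 higher in RNA of controls and of KO cells, and at least 100 counts left 27 lower in footprints of KO cells.

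With column totals alone, the OMP-GFP pair gave 1.01 for H1 footprints, -0.46 for core footprints and -0.46 for core footprints per RNA read, and the Ngn1-GFP pair 0.013 for core footprints and -1.78 for core RNA. The populations gave -1.25 for H1 and -0.77 for core footprints in controls, and -1.25 for core footprints in KO cells. H1 footprints of KO cells turned from 0.06 to -0.16 under column totals and to -0.33 without Hist1h1e; the cause was not tested. Without the member with most counts, core footprints were 0.12 in the Ngn1-GFP pair, -0.81 between populations in controls and -1.28 in KO cells, core RNA of the Ngn1-GFP pair -1.72, core footprints per RNA read of the OMP-GFP pair -0.49, and H1 footprints of controls -1.41. TMM without histone, receptor, mitochondrial and ribosomal genes gave -1.88 for core RNA in the Ngn1-GFP pair, and leaving out the 24 members of the uneven column gave -0.95. Near 0, the sums of H1 RNA and H4 footprints in the Ngn1-GFP pair turned to 0.019 and -0.016 under column totals, H2B RNA of the OMP-GFP pair to 0.16 without its deepest gene, and H2A footprints per RNA read of KO cells between populations to 0.044 without the 24 members.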
